A study of Oncorhynchus kisutch with 226 samples.

Results

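Fork length, the distance from the snout to the fork of the tail, was compared with the liver expression profile of juvenile coho salmon (Oncorhynchus kisutch) caught at sea in summer. The fish were those labelled Ocean_Summer, year 2009, and caught in the areas NM_SoG and south_SoG of the Strait of Georgia, which gave 52 of the 226 fish of the series. Of these, 36 were caught in NM_SoG and 16 in south_SoG, and 25 were hatchery fish and 27 wild. The labels placed 20 of them in the stock region Fraser, 16 in ECVI and 15 in S_Main, and gave no stock for 1. There were 31 males, 20 females and 1 fish of unknown sex. All were caught in seawater, hatchery fish included, with 1 liver and 1 array per fish. The labels gave no treatment, no age and no genotype beyond the stock region. They were split by length into a short group of 18 fish up to 17.5 cm, a middle group of 16 fish from 17.7 to 18.7 cm and a long group of 18 fish from 19.0 cm. The limits thus fell between 17.5 and 17.7 cm and between 18.7 and 19.0 cm.

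Coho salmon hatch in rivers, spend their early life there and grow fast after they enter the sea. Body size reached in the first months at sea is often studied because larger juveniles are thought to survive their first winter more often. The liver of a bony fish takes part in this growth: it stores and mobilises glycogen and fat, makes blood proteins, and secretes insulin-like growth factor when growth hormone reaches it. A comparison of long and short fish caught in the same waters and season asks whether the liver profile differs with body size apart from season and place.

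Each value was a log ratio, as deposited by the authors and read here as log2, between the liver of 1 fish and a common pool of the series' livers. The numerator and the base of the logarithm were not stated. Over 16802 probes measured on at least 80% of all 226 arrays, a probe's mean changed by -0.364 per unit of its variance. A base of 2 with the fish as numerator would give -0.347, because a pool lies above the mean of its members' logarithms by more where they vary more. The direction, fish over pool, is therefore likely but not stated, and with the opposite direction every "higher" below would read "lower". Probes are named by the column and row of their spot. The files used here do not pair them with genes, and the reference table given with them does not list these probes. The array's platform annotation was not used here. So no gene, pathway or cell type marker could be looked up, and the labelled tissue was not checked against liver markers.

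The arrays of these fish measured between 12760 and 29548 probes each, with array medians from -0.0048 to 0.0267. Pairs of arrays correlated at a median of 0.526 for the 50 pairs on a shared slide and 0.304 for the others. Of 1326 pairs, 2 lay below -0.3, at the lowest -0.36. Both paired a wild S_Main fish of 17.8 cm from NM_SoG with ECVI fish of south_SoG, and since the labels give all fish the same dye the direction was kept.

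By construction the groups differed in size. Fork length was 16.03 ± 1.34 cm (SD, n = 18) in the short, 18.2 ± 0.338 cm (n = 16) in the middle and 20.3 ± 1.44 cm (n = 18) in the long group, with extremes of 12.9 and 24.1 cm. Body mass was 50.5 ± 14.3 g in 15 short fish and 102.2 ± 24.3 g in 17 long fish, and 4 fish had no usable mass. Mass rose with length to the power 3.08 (95% interval 2.89 to 3.26, 48 fish). The condition factor, 100 times the mass in grams over the cubed length in cm, was 1.19 ± 0.0752 in the long and 1.19 ± 0.104 in the short group (difference 0.00617, permutation p = 0.85, adjusted 0.915 over 6 comparisons of fish traits).

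**Figure D1:**
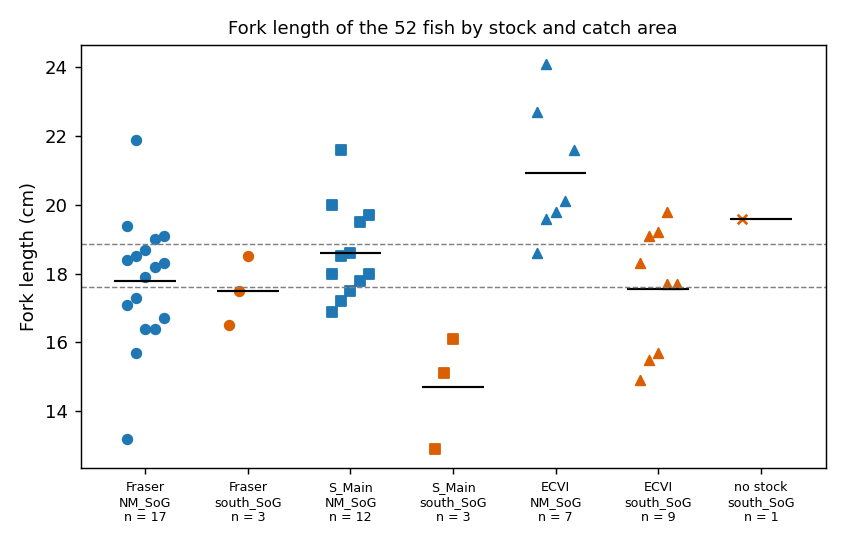
Fork length in cm (vertical axis) of each of the 52 fish, by stock and catch area (blue NM_SoG, orange south_SoG), with the mean as a black bar and the limits of the short and long groups as dashed lines. ECVI fish of NM_SoG lie highest, between 18.6 and 24.1 cm, and the 3 S_Main fish of south_SoG lie lowest, between 12.9 and 16.1 cm.

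No comparison of length between areas, stocks, origins or sexes passed after adjustment. Fish of NM_SoG measured 18.7 ± 2.06 cm (n = 36) and fish of south_SoG 17.1 ± 1.98 cm (n = 16), a difference of 1.54 cm (permutation p = 0.0149, adjusted 0.0892 over the 6 comparisons). ECVI fish measured 19.0 ± 2.49 cm (n = 16) against 17.8 ± 1.88 cm in the fish of the other stocks (n = 35; permutation p = 0.0536, adjusted 0.159). The 7 ECVI fish of NM_SoG averaged 20.9 cm and the 9 of south_SoG 17.5 cm. Hatchery and wild fish differed by 0.712 cm (permutation p = 0.239, adjusted 0.358) and males and females by 0.0685 cm (p = 0.915, adjusted 0.915).

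Counted by group, 14 of 18 long and 10 of 18 short fish came from NM_SoG (Fisher's exact test, two-sided, p = 0.289, adjusted 0.578 over 6 traits). The long group held 9 ECVI fish and the short group 3 (exact p = 0.075, adjusted 0.45), while Fraser fish numbered 4 and 9 (exact p = 0.164, adjusted 0.493). No trait passed the adjusted test. The 52 arrays lay on 22 slides, of which 10 held fish of more than 1 length group, 3 held both long and short fish and 7 held a single fish of these 52. Slide was therefore kept in the fits as a random block, and catch area as a covariate.

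No probe passed the test between long and short fish. Of 17473 probes measured on at least 80% of the 52 fish, 0 were called by limma (background 0%), and the smallest adjusted p was 0.156. A call needs an adjusted p below 0.05 by Benjamini-Hochberg. Background, here and below, is the share of all tested probes that the same test called, not an expected rate. Before adjustment, 1005 probes or 5.75% of those tested had p below 0.05, with 445 higher and 560 lower in long fish. The fitted differences ran from -1.59 to 1.73 with a median standard error of 0.165. For 96.4% of probes the 95% interval of the difference lay wholly between -1 and 1, and for 59.3% between -0.5 and 0.5. A difference of 1 on this scale, 2-fold if the base is 2, thus lay outside the interval of those 96.4%, while smaller differences lay inside it for many.

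The slope over all 52 lengths gave the same count. For the change per cm, limma called 0 of 17473 probes (background 0%), with 890 (5.09%) at an unadjusted p below 0.05, of which 448 rose and 442 fell with length. The smallest adjusted p was 0.0562. Fitted slopes ran from -0.27 to 0.37 per cm, the median of their absolute values was 0.0227, and the median standard error was 0.0343. The 95% interval of the slope lay within 0.1 per cm of 0 for 56.8% of probes, within 0.2 for 96.1% and within 0.3 for 99.5%.

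No probe set the middle group apart from either end by limma. Against the short group 0 of 17473 probes were called (background 0%, 845 or 4.84% at an unadjusted p below 0.05). Between long and middle fish 0 were called as well (background 0%), with 366, or 2.09%, at an unadjusted p below 0.05. The middle group held more wild fish than either end, and origin was not a covariate in these comparisons. The spread between fish within a group, as a median SD per probe, was 0.462 in short, 0.488 in middle and 0.492 in long fish.

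**Figure D2:**
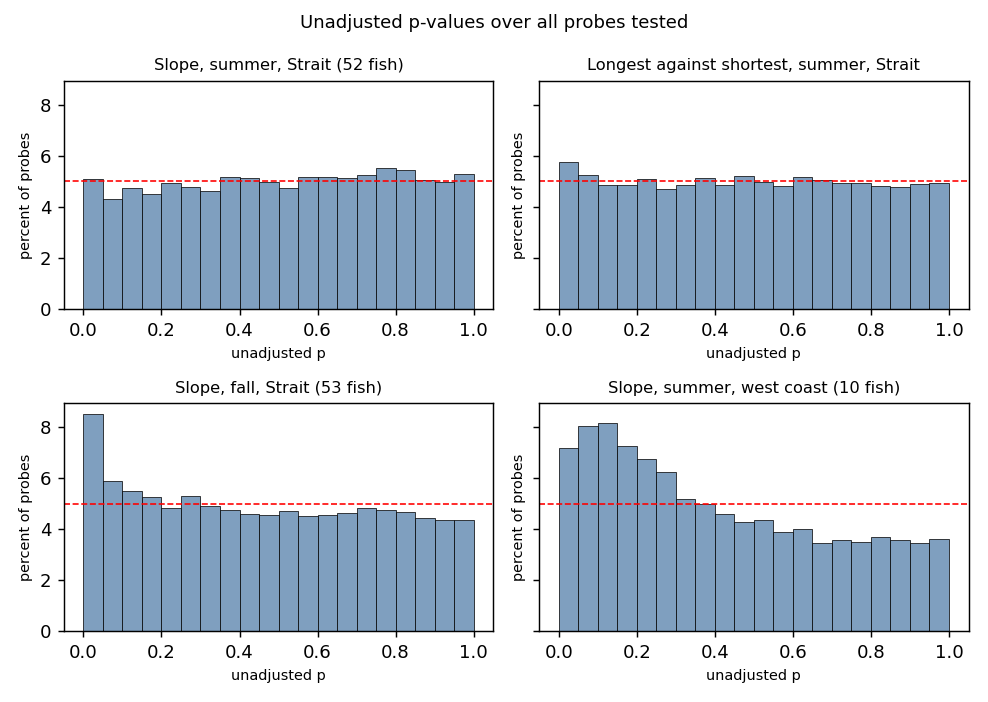
Percent of probes (vertical axis) in each interval of unadjusted p from limma (horizontal axis), for the 2 summer comparisons of the Strait (top), the fall slope and the summer slope on the west coast (bottom). The dashed red line marks 5%, an even spread. The lowest interval holds 5.09% for the summer slope, 5.75% for long against short, 8.51% for the fall slope and 7.20% for the west coast.

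The nearest probe to the threshold was C177R077. Its ratios ran from -0.57 through a median of 0.28 to 1.25 in 18 short fish, from -0.67 through 0.04 to 0.40 in 16 middle fish and from -1.10 through -0.52 to 1.10 in 18 long fish. Of the 18 long fish, 17 lay below the short fish's median and 8 lay below every short fish, while the other 10 lay within the short fish's range. The highest long fish, a wild S_Main fish of 19.5 cm from NM_SoG, stood at 1.10, and the next highest stood at 0.24. The shortest fish, of 12.9 cm, had 1.25 and the longest, of 24.1 cm, had -1.10. The slope of C177R077 was -0.17 per cm (SE 0.0333, 95% interval -0.24 to -0.11, limma p = 3.2e-06, adjusted p = 0.0562), and long fish lay at -0.79 relative to short fish (SE 0.168, adjusted p = 0.156).

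C177R077 crossed the threshold under some settings and missed it under others. Without the slide of the high 19.5 cm fish, which held no other of the 52, its slope was -0.18 with an adjusted limma p of 0.00508. Without the 12.9 cm fish, whose array had the fewest measured probes, it was -0.16 with an adjusted p of 0.455. With stock as a further covariate it was -0.15 (51 fish, adjusted p = 0.733). With the slide as a fixed block it was -0.19 (SE 0.0536, adjusted limma p = 0.9999). C177R077 stood at 0.27 ± 0.557 in 15 S_Main, -0.05 ± 0.516 in 20 Fraser and -0.39 ± 0.465 in 16 ECVI fish. Within a stock the slope was -0.21 (SE 0.0495) in Fraser, -0.14 (SE 0.0896) in S_Main and -0.12 (SE 0.0669) in ECVI fish, each with an adjusted limma p of 0.821 or above.

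C094R022 was the lowest-p probe that fell from short to long fish. It ran from -0.84 through a median of 1.25 to 2.42 in 18 short fish, from -1.81 through 0.40 to 1.66 in 16 middle fish and from -1.37 through -0.32 to 1.32 in 18 long fish. Long fish lay below the short fish's median in 17 of 18 cases, but only 3 lay below every short fish. The difference was -1.42 (SE 0.301, 95% interval -2.02 to -0.82, limma adjusted p = 0.156). Its slope, from the separate fit over all 52 fish, was -0.25 per cm (SE 0.0647, adjusted p = 0.635). On the 3 slides that held both long and short fish, the long minus short differences of C094R022 were -1.59, -2.17 and -2.60. They rested on 1 long and 2 short, 1 and 1, and 2 and 2 fish, all of NM_SoG and of Fraser or S_Main stock. C094R022 was chosen over these same fish among others, so the shared sign is in part fixed. With the slide as a fixed block the difference was -1.85 (adjusted p = 0.439), and without slide 15, which held 4 Fraser fish of 18.4 to 19.1 cm, it was -1.53 with an adjusted limma p of 0.0163. Without slide 16, which held 4 Fraser fish of 16.4 to 21.9 cm and the largest of those 3 differences, C094R022 stood at -1.20 with an adjusted p of 1, and with stock as a further covariate at -1.46 with an adjusted p of 0.642.

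C265R143 and C101R067 had the smallest p among probes that rose, and neither passed the threshold under any setting run. C265R143 ran from -1.35 through -0.51 to 0.31 in 17 short fish and from -0.25 through 0.11 to 0.89 in 17 long fish. All 17 long fish lay above the short fish's median and 4 lay above every short fish. The difference was 0.63 (SE 0.148, 95% interval 0.33 to 0.93, limma adjusted p = 0.294), and on the 3 shared slides it was 0.52, 1.35 and 0.75. Those 3 values rested on the same few fish as for C094R022, and C265R143 was also chosen with them. Its lowest adjusted p among the settings was 0.0903, with no slide term. C265R143 stood at 0.19 ± 0.366 in 14 ECVI, -0.36 ± 0.504 in 20 Fraser and -0.24 ± 0.400 in 13 S_Main fish. With stock as a further covariate the difference was 0.54 (51 fish, adjusted limma p = 0.782). By stock alone it was 0.64 in Fraser, 0.51 in S_Main and 0.49 in ECVI fish, each with an adjusted limma p of 0.426 or above. C101R067 ran from -0.65 through -0.15 to 0.32 in 15 short fish and from -0.19 through 0.27 to 1.54 in 14 long fish, of which 6 lay above every short fish. Its slope was 0.12 per cm (SE 0.0285, 95% interval 0.07 to 0.18, limma adjusted p = 0.458). By stock it was 0.03 in S_Main, 0.10 in Fraser and 0.15 in ECVI fish alone, by sex 0.07 in females and 0.19 in males alone, and 0.08 without the ECVI fish, each with an adjusted limma p of 0.464 or above. Its adjusted p was lowest, at 0.0644, with the west coast fish added and no area term. On the shared slides its long minus short differences were -0.26, -0.11 and 0.61, so they did not share a sign. They rested on 1 long and 1 short, 1 and 1, and 2 and 2 measured fish. The long minus short differences of C177R077 on these slides were -1.51, 0.05 and -0.57, from the same fish as for C094R022.

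**Figure D3:**
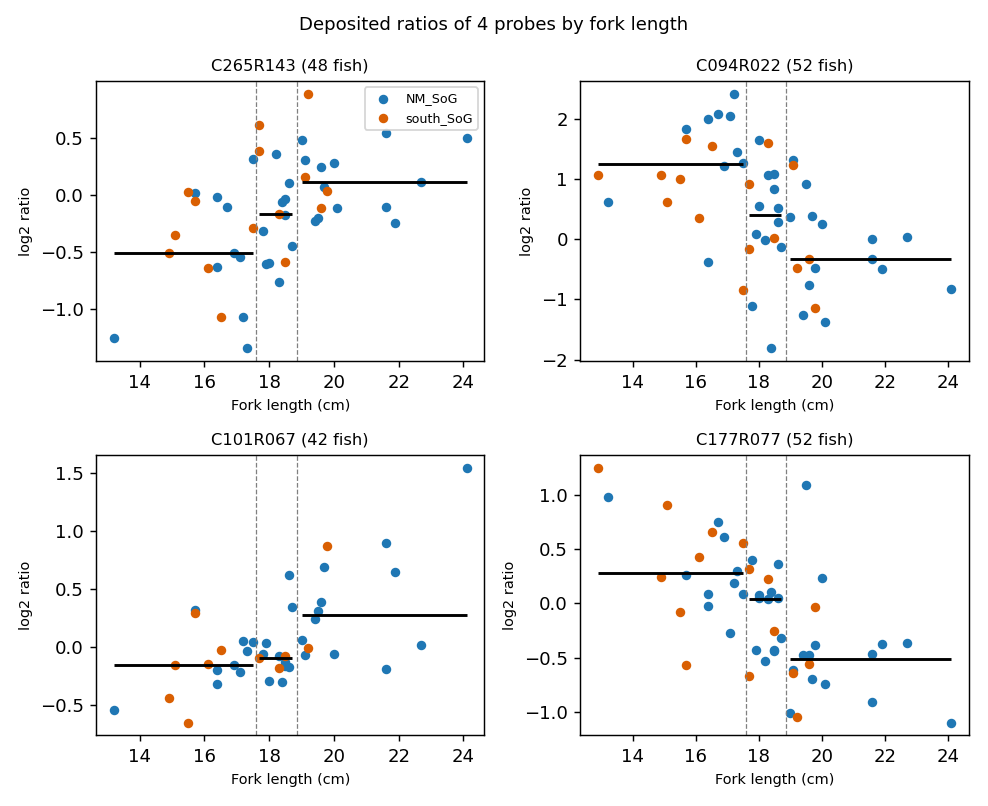
Deposited ratios, read as log2 (vertical axis), against fork length in cm (horizontal axis) for the 4 probes with the smallest p in each direction of the 2 comparisons. Each point is 1 fish (blue NM_SoG, orange south_SoG), black bars are group medians and dashed lines the group limits. C177R077 falls from a median of 0.28 in short to -0.52 in long fish, with 1 long fish at 1.10, and every probe overlaps between short and long fish.

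Within each catch area the slopes pointed the same way, which the choice of these probes over both areas in part fixes. C177R077 had -0.16 per cm (SE 0.0394) in NM_SoG and -0.21 (SE 0.0622) in south_SoG, a difference of -0.05 (95% interval -0.20 to 0.09, limma adjusted p = 1). In the 4 long fish of south_SoG it stood at -0.64, -1.05, -0.56 and -0.03, and the 8 short fish there ran from -0.57 through 0.50 to 1.25. C094R022 had -0.26 and -0.23 per cm, C265R143 0.13 and 0.12, and C101R067 0.12 and 0.13.

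Across all probes no slope differed between the areas by limma. The test of the difference called 0 of 17473 (background 0%), with 437 (2.50%) at an unadjusted p below 0.05. The slope called 0 within NM_SoG (background 0%, 736 or 4.21% at an unadjusted p below 0.05). Within south_SoG it called 0 (background 0%, 555 or 3.18% at an unadjusted p below 0.05). The smallest p for a difference belonged to C007R156, with slopes of -0.03 per cm in NM_SoG and 0.49 in south_SoG (difference 0.52, SE 0.113, adjusted p = 0.459). Among the 8 short fish of south_SoG, C007R156 had a median of 0.09, a highest value of 0.46 and a lowest of -5.08. That lowest value belonged to the 12.9 cm fish and lay far from the rest. In the opposite direction C095R067 had 0.02 per cm in NM_SoG and -0.36 in south_SoG (difference -0.37, SE 0.104, adjusted p = 1).

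Fish that took no part in choosing the probes were the 53 fall fish of 2009 from the same areas, with fork lengths from 17.1 to 28.8 cm. Their slope was fitted together with the summer fish, with catch area within season as a term but none for stock, origin or sex. Stock, origin and sex of the fall fish are not given here, and their part in the slopes was not tested. C177R077 fell by 0.07 per cm in fall (SE 0.0302, 95% interval -0.13 to -0.01, limma p = 0.0315, adjusted p = 0.525), against a fall of 0.18 in summer in that fit. Its fall minus summer difference was 0.11 (95% interval 0.02 to 0.21). C094R022 had -0.08 per cm in fall (SE 0.0556, adjusted p = 0.732), C265R143 0.02 (SE 0.0311, adjusted p = 0.925) and C101R067 0.00 (SE 0.0263, adjusted p = 0.983). None passed the test over all probes. The 4 were chosen for their summer values, so a fall slope nearer to 0 than the summer slope, and the difference between them, are given as a description.

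The fall fish had more small p-values than the summer fish. Their slope called 4 of 17512 probes (background 0.0228%), 3 of them rising and 1 falling with length, with 1490 (8.51%) at an unadjusted p below 0.05. In the same fit the summer slope called 0 (background 0%) with 763 (4.36%) at an unadjusted p below 0.05. The test of the difference between the seasons called 0 (background 0%), with 699 (3.99%) at an unadjusted p below 0.05, so the seasons were not shown to differ at any probe. The SD of length was 2.39 cm in fall and 2.14 cm in summer fish, and its part in the number of small p-values was not tested.

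The 3 probes named here, of the 4 called in fall, had summer slopes of the same sign. The other, a rising probe, was left unnamed under the limit of 2 per direction. The share of all probes with the same sign in both seasons is not given here. The shared sign is thus only a description. Summer slopes in this paragraph are from the fit of both seasons unless stated. C152R036 rose by 0.23 per cm in fall (SE 0.0465, limma adjusted p = 0.029) and had 0.16 in summer (SE 0.0588, p = 0.00718, adjusted p = 0.872). It ran from -3.62 through -1.09 to 0.68 in the summer's short fish and from -2.44 through -0.02 to 0.98 in its 17 measured long fish, 4 of which lay above every short fish. C028R039 rose by 0.49 per cm in fall (SE 0.102, adjusted p = 0.0301) and had 0.14 in summer (SE 0.128, adjusted p = 0.999). C107R055 fell by 0.18 per cm in fall (SE 0.0376, adjusted p = 0.029) and had -0.09 in summer (SE 0.0472, adjusted p = 0.999). The smallest p for a season difference belonged to C133R105, with -0.07 per cm in summer and 0.09 in fall (difference 0.16, SE 0.0363, adjusted p = 0.434). For the opposite sign it was C265R053, with 0.15 in summer and -0.28 in fall (difference -0.43, SE 0.102, adjusted p = 0.434). With the slide as a fixed block that difference was -0.23 (adjusted p = 1).

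**Figure D4:**
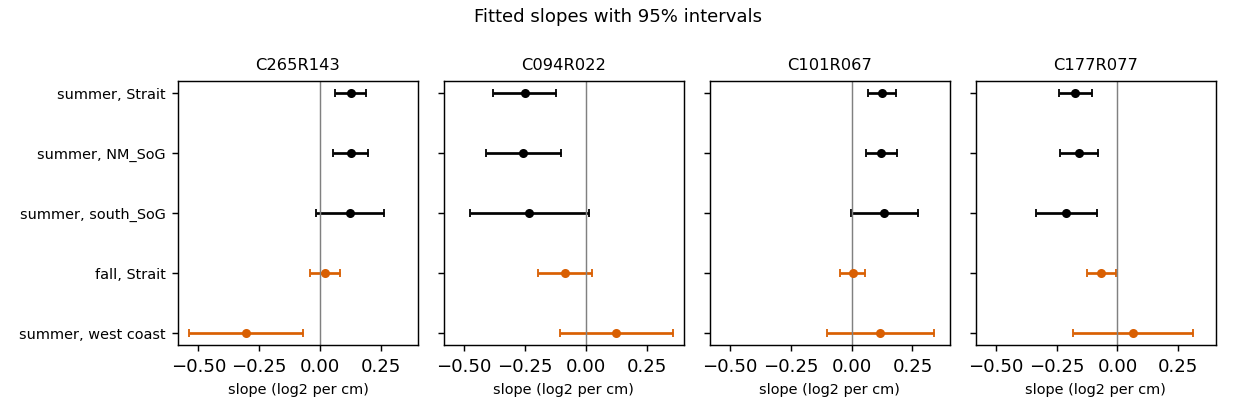
Fitted slopes per cm of fork length (horizontal axis, log2 per cm) with 95% intervals for 4 probes, in the summer fish of the Strait and its 2 catch areas (black) and in the fall fish and west coast summer fish that did not enter the choice of probes (orange). C177R077 has -0.17 in the summer fish, -0.07 in the fall fish and 0.06 on the west coast.

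The 10 summer fish of 2009 caught off the west coast (area label WCVI), 14.2 to 21.1 cm long, gave slopes with wide intervals. Their fit held no term for stock, origin or sex, and these traits of the west coast fish are not given here. C177R077 had 0.06 per cm (95% interval -0.18 to 0.31, limma adjusted p = 0.833), C094R022 0.13 (-0.11 to 0.36) and C101R067 0.12 (-0.10 to 0.34). C265R143, measured on 6 of these fish, had -0.30 (-0.54 to -0.07, adjusted p = 0.638), the opposite sign to the Strait. Among all probes limma called 0 of 17468 (background 0%), with 1258 (7.20%) at an unadjusted p below 0.05.

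Adding these 10 fish changed the count only where area was ignored. With area as a covariate the slope over 62 fish called 0 of 17473 probes, with 1409 (8.06%) at an unadjusted p below 0.05. Without an area term it called 583 of 17473, of which 255 rose and 328 fell with length, and 4671 (26.7%) had an unadjusted p below 0.05. Fork length was 16.7 ± 2.27 cm in the 10 west coast fish and 18.2 ± 2.14 cm in the 52 fish of the Strait, and the part of this difference in the 583 calls was not tested. Among the 52 fish alone, leaving the area term out gave 1 call, C177R077 with -0.17 per cm (adjusted p = 0.045).

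The 9 fish lowest on the leading axis of the 52 profiles shared their catch area and spanned most lengths. In a principal component analysis of the 10585 probes measured on every fish, the first axis held 33.7% of the variance, the second 9.10% and the third 7.18%. Below -0.5 on the first axis lay 9 fish, all caught in south_SoG. They were 12.9 to 19.6 cm long and split into 3 short, 3 middle and 3 long fish, with 5 from ECVI, 3 from S_Main and 1 without a stock. Of the 9, 7 were wild, and they lay on 6 slides. Their arrays measured 12760, 17297, 17993, 18382, 19089, 19296, 19538, 23423 and 23894 probes, against a median of 22249 over all 52. The axis was given the sign under which its scores rise with the number of measured probes. How far that number, origin or stock goes with the axis was not tested. The other 7 fish of south_SoG lay between 0.03 and 0.22, and the 36 of NM_SoG between -0.45 and 0.40 with a median of 0.20. The lowest of NM_SoG stood at -0.45, -0.36, -0.29 and -0.20 and were all S_Main fish. The limit of -0.5 thus cut a run of scores. Fraser fish lay between 0.06 and 0.26. Placed on the same axis, the 10 west coast fish ran from -0.91 to 0.30 with a median of -0.73, and 7 lay below -0.5.

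**Figure D5:**
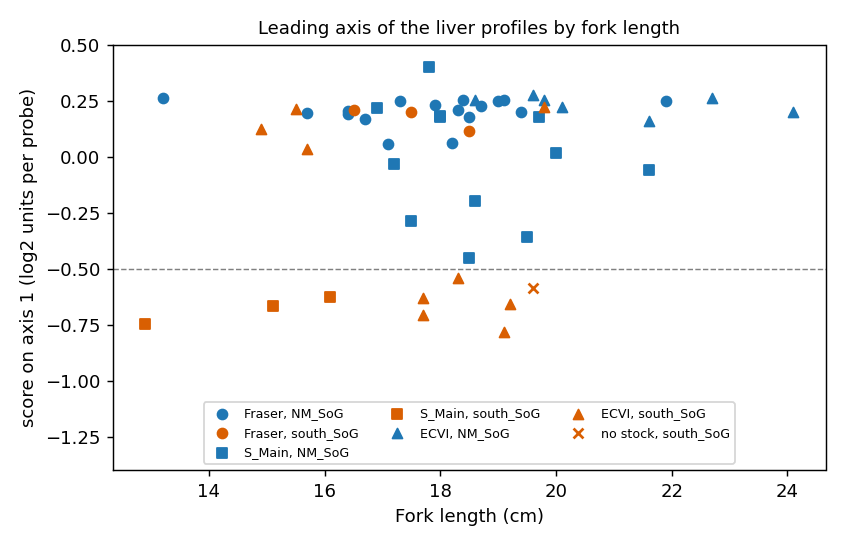
Score on the first principal component (vertical axis, log2 units per probe) against fork length in cm (horizontal axis) for the 52 fish, by catch area (colour) and stock (shape); the dashed line marks -0.5. The 9 fish below the line are all from south_SoG and span 12.9 to 19.6 cm.

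Over all 52 fish the first axis had a Pearson r of 0.177 with fork length (permutation p = 0.21, adjusted 0.61 over 5 array measures; Spearman rho 0.172, p = 0.222, adjusted 0.496). Without the fish of 24.1 and 12.9 cm, the farthest from the median length, r was 0.0504. It was -0.015 within NM_SoG. Within south_SoG the scores form separate clusters, and no r is given. The r over all 52 fish includes the same clusters, so it is not free of them. The second axis had r = -0.138 (permutation p = 0.328, adjusted 0.61). The third had r = -0.123 (permutation p = 0.383, adjusted 0.61) and rho -0.262 (permutation p = 0.0614, adjusted 0.307). Within NM_SoG the third axis had rho -0.344 (permutation p = 0.0398, adjusted 0.199). The number of measured probes had r = 0.072 (p = 0.61, adjusted 0.61) and the spread of the ratios within an array r = -0.0948 (p = 0.502, adjusted 0.61). None of the correlations computed passed after adjustment, in the whole set, without those 2 fish or within an area.

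With the score on the first axis as a covariate, the length fits made a few calls. Of 17473 probes, limma then called 3 between long and short fish, all lower in long fish, with 1499 (8.58%) at an unadjusted p below 0.05. For the slope it called 1 probe, with 1357 (7.77%). C094R022 was among the former, at -1.45 (SE 0.286, adjusted p = 0.0425), and C177R077 was the latter, at -0.17 per cm (SE 0.0323, adjusted p = 0.0289). The axis was computed from the same ratios, and this setting was added after the data were seen. With the scores on 3 axes the counts were 2 and 7, C177R077 stood at -0.16 per cm (adjusted p = 0.016), and C094R022 was at -1.27 with an adjusted p of 0.163.

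Stocks taken alone gave few calls and unequal numbers of small p-values. Between long and short fish, limma called 2 probes in 20 Fraser fish, 0 in 15 S_Main fish and 7 in 16 ECVI fish, all 7 lower in long fish. Of the 17473 probes tested in each stock, the numbers at an unadjusted p below 0.05 were 1060 (6.07%, Fraser), 270 (1.55%, S_Main) and 3404 (19.5%, ECVI). The 3 short ECVI fish, 14.9 to 15.7 cm, all came from south_SoG and scored 0.03 to 0.21 on the first axis. The 3 long ECVI fish of that area stood at -0.78, -0.66 and 0.22, and the 6 long ones of NM_SoG ran from 0.16 to 0.27. Catch area stayed a covariate, and only south_SoG held both long and short ECVI fish. The ECVI contrast thus rested mainly on the 3 long and 3 short fish there. The slope over the same 16 ECVI fish called 0, with 979 (5.60%) at an unadjusted p below 0.05. Whether length groups differ between stocks was not tested.

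Fish of like length had arrays about as similar as fish of unlike length. On different slides the median correlation was 0.289 for 338 pairs of fish under 1 cm apart, 0.312 for 700 pairs 1 to 4 cm apart and 0.306 for 238 pairs over 4 cm apart. Fish of the same stock had 0.378, 0.401 and 0.339 over these distances and fish of different stocks 0.224, 0.268 and 0.296. Pairs share fish and are given as a description.

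Probes empty on many arrays were compared by whether they were measured at all. Over 8255 probes measured on 20% to 80% of the 52 fish, Fisher's exact test called 0 between long and short fish (background 0%), with 1.91% at an unadjusted p below 0.05. Of these, 31 probes were measured more often in long fish and all others more often in short fish. Among all 8255, 53.4% were measured on more short fish and 32.5% on more long fish. Without the array of fewest measured probes, which is a short fish's, 0 were called, and 276 probes with an unadjusted p below 0.05 were measured more often in short and 34 more often in long fish. The extremes were C120R077, measured on 7 of 18 long and 17 of 18 short fish (exact p = 0.000945, adjusted p = 1), and C249R002, measured on 13 of 18 long and 4 of 18 short fish (exact p = 0.00671, adjusted p = 1). Long arrays measured 21627 ± 2303 probes and short arrays 22153 ± 3454.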

How the data were processed

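Liver RNA of 1 fish per array was coupled to one Alexa dye and hybridised against a liver pool of the whole series in another, per the labels' protocols, which name no dye swap. The ratios were used as the authors deposited them and read as log2, a base inferred from the values. How they were normalized and centred, and why cells are empty, is not given in the sources used here. Of the cells of the 52 fish, 49.7% were empty. A second deposited table, whose unit is recorded as other, held the same values and 18 control spots.

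Probes measured on at least 80% of the 52 fish (17473) were fitted with limma 3.58.1 in R 4.3.3 (lmFit, eBayes), with catch area as a covariate and slide as a random block (duplicateCorrelation on 3000 probes, consensus correlation 0.221 for the slope and 0.228 for the groups). The fit to the west coast fish alone took over the slope value of this correlation. Fits to a single area, origin, sex or stock, and those without a slide, also took over the values of the 52 fish. The correlation was not estimated anew in those fish. Adjustment was Benjamini-Hochberg over all probes. All tests were two-sided. Permutation tests used 100000 resamples, drawn in Python 3.11.15, and Fisher's exact tests used scipy 1.17.1. Neither kind had a slide block or an area term, so fish on a shared slide were treated as independent. The fall fit used 105 fish and 17512 probes. Fits were also run on simulated ratios with the slide correlation of the data. Probes were drawn there independently of each other, so those runs do not cover probes that vary together. Per comparison and direction at most 2 called probes were named, those of smallest p, or 1 that did not pass. The members, lists and tests were chosen with earlier results of these data known. The planned gene lists and markers were not run, since the probes are unnamed. Each array was a separate fish, and the number of arrays limits the precision. A value after ± is the SD between fish.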

Additional observations from a re-analysis of the deposited data

How the results depend on the processing

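The count of calls between long and short fish was 0 and stayed 0 under 22 of 27 other settings. It was 1 with no slide term, 3 with the first axis score as a covariate, 2 with the scores of 3 axes, 2 in Fraser fish alone and 7 in ECVI fish alone. Leaving out each of the 22 slides in turn gave 0 to 1 calls, with 1 without slide 15 (adjusted p = 0.0163) and 1 without slide 20 (adjusted p = 0.00745). The count for the slope was 0 and stayed 0 under 24 of 31 other settings. It was 1 with no slide term, with only the probes measured on every fish, with no catch area term, with the first axis score and in females alone, 7 with 3 axis scores, and 583 with the west coast fish added and no area term. Leaving out each slide gave 0 to 1 calls, with 1 without slides 2, 13, 17 or 20 (adjusted p = 0.0208, 0.0476, 0.0359 and 0.00508). With females alone the call was not C177R077, and with the other 4 settings of a single call it was. Over the settings on the cm scale C177R077 lay between -0.22 and -0.12 per cm and C101R067 between 0.03 and 0.19. Over the settings of the group comparison C094R022 lay between -1.85 and -1.01 and C265R143 between 0.46 and 0.84. None of these 4 changed sign in those settings, which are all of fish of the Strait except for the added west coast fish. The probes were chosen over these same fish, which in part fixes their sign. In the west coast fish alone the slopes of C177R077, C094R022 and C265R143 had the opposite sign and that of C101R067 the same, as given above. The axis scores, stocks alone, females alone, the added west coast fish without area and the omission of the array of fewest probes were chosen after seeing the data. The slope differences between areas and seasons and the measured cells kept counts of 0 under every setting run for them. With groups formed within each area, the adjusted p of stock, origin and sex in the length groups stayed above the threshold. ECVI fish then numbered 10 of 18 long and 3 of 18 short fish (exact p = 0.0354, adjusted 0.212). The cause of each change was not tested.

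Correlations of array measures with length changed sign without passing a test: the number of measured probes had r = -0.109 without the 2 extreme fish and -0.0023 within south_SoG, the spread 0.0336 without them and 0.0361 within NM_SoG, and the first axis -0.015 within NM_SoG. The table with control spots was not fitted separately, because it held the same values. No paired analysis was possible because the replicate numbers only name the fish in accession order. Differences within slides are given above. Under a fixed slide block limma called 0 probes for the groups and 0 for the slope. At an unadjusted p below 0.05 were 1074 (6.15%) and 726 (4.15%). C265R143 then stood at 0.84 between long and short fish (SE 0.233, adjusted p = 0.504). The slope of C101R067 was 0.12 per cm (SE 0.054, adjusted p = 0.9999). Differences under 0.1 per cm lie inside the interval of many probes.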

Other observations

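Of the 18 control spots in the second deposited table, 6 were measured on at least 80% of the 52 fish. The median ratio of these 6 ran from 0.03 to 0.81 between fish, with a median of 0.42. It had r = 0.14 with fork length (permutation p = 0.326; Spearman rho 0.123, p = 0.385), and r = 0.05 without the fish of 24.1 and 12.9 cm.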
